A study of Mus musculus with 16 samples.

Results

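Mammary tumours that carried a constitutively active STAT5 transgene (STAT5ca) were set directly against mammary tumours that carried a C-terminally truncated STAT5 transgene (STAT5Δ750). The tumours were chosen by the titles of their arrays, 7 STAT5ca and 6 STAT5Δ750, which made 13 of the 16 arrays of the study. The 3 remaining arrays held mammary gland of the same FVB/N strain background, entered no test here, and are quoted only as background levels. Each tumour was excised and snap-frozen, and its total RNA was hybridised to 1 Affymetrix Mouse Genome 430A 2.0 array. All 13 tumours thus shared the strain background and the presence of a Stat5 transgene, and no tumour without such a transgene was among them. The promoter that drives the transgenes, the age and parity of the mice, the histology and stage of the tumours and the number of founder lines are not given in the sources used here. Nothing in the labels says whether each array came from a separate mouse, so the p-values below measure the spread between these samples only. Tumours are called by the number in their title, for example STAT5ca_177. Because the array of STAT5ca_177 had a Krt8 signal below 100, most differences are given with all 13 tumours and with the 12 that leave it out.

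STAT5a and STAT5b are closely related transcription factors that carry the prolactin signal in mammary epithelium. The prolactin receptor activates the kinase JAK2, which phosphorylates STAT5 on a tyrosine. The STAT5 dimer then enters the nucleus and binds sites with the core TTCNNNGAA near milk protein genes and near genes of its own negative feedback, such as Cish and the Socs genes. The C-terminus of STAT5 holds its transactivation domain. Forms that lack it still bind DNA. STAT5 also supports the growth and survival of alveolar cells in pregnancy and lactation, and persistent activity of the pathway in mouse mammary epithelium has been linked to tumours.

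To show what such sites look like next to genes that are measured below, the RefSeq windows of 3 STAT5 target genes on build GRCm38.p6 are given, each from 250 bases before to 50 bases after the annotated start, 5′ to 3′ on the strand of the gene. Csn1s1 and Csn2 encode caseins of milk, and Cish encodes an inhibitor that STAT5 induces against its own pathway. Capitals mark matches to TTCNNNGAA, which reads the same on both strands. The windows are chr5:87665958-87666257 on the plus strand for Csn1s1, chr5:87699376-87699675 on the minus strand for Csn2 and chr9:107296409-107296708 on the plus strand for Cish.
Csn1s1: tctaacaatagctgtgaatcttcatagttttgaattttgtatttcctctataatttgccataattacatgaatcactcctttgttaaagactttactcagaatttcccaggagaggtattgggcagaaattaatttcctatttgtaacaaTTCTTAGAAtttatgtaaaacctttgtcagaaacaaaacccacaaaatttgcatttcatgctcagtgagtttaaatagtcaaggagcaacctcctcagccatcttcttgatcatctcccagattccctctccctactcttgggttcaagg
Csn2: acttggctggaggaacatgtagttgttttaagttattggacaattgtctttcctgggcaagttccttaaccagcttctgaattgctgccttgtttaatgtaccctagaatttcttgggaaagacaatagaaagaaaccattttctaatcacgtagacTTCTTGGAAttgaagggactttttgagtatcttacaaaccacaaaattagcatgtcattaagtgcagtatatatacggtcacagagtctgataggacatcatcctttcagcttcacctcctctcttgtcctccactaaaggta
Cish: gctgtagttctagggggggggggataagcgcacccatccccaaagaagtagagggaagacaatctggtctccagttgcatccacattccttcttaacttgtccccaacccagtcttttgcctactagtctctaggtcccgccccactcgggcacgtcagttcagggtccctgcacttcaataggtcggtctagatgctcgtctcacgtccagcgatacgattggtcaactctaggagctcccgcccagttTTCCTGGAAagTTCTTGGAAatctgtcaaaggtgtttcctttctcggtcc
The match began at base 151 of the window in Csn1s1 and at base 158 in Csn2, and Cish held 2 matches at bases 251 and 262. Over all 32851 windows of this length, 2726 (8.30%) held at least 1 match. Among the milk protein genes with a window, 4 of 16 held one, namely Csn1s1, Csn1s2a, Csn2 and Glycam1, and among the STAT5 and prolactin pathway genes 3 of 16 did, namely Cish, Socs3 and Bcl6. A match is a description of the letters and not of a bound site.

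The deposited values were MAS5 signals, in arbitrary units of intensity, for 22690 probe sets. All differences below are on the log2(signal + 8) scale, STAT5ca minus STAT5Δ750, with the standard error of limma, and understate the change of genes with low signals. After a filter on low signals, 8885 genes were tested, 1 probe set each. The trimmed mean signal was 250.1 on every tumour array. Array medians ran from 57.3 to 83.6 in STAT5ca and from 72.2 to 81.1 in STAT5Δ750 tumours. The 3′/5′ signal ratio of β-actin, a measure of RNA integrity and labelling, was 3.23 ± 1.56 (SD, n = 7) in STAT5ca and 2.16 ± 0.86 (SD, n = 6) in STAT5Δ750 tumours, with overlapping ranges of 1.76 to 5.38 and 1.27 to 3.52. No 2 of the 13 arrays held identical values.

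The tumour STAT5ca_177 stood apart from the other 12 and lacked the epithelial genes of a mammary tumour. Krt8 and Krt18 encode the keratin pair of luminal cells. Krt8 read 25.3 on this array and 3711 to 5376 on the 12 others, and Krt18 read 50.2 against 3974 to 6440. The epithelial adhesion gene Epcam read 80.3, the tight junction genes Cldn3 and Cldn7 read 8.4 and 13.3, and the alveolar transcription factor gene Elf5 read 7.8. Cdh1, which encodes E-cadherin, kept a signal of 563.4. Genes of macrophages were high on the same array: Csf1r, the receptor for the macrophage growth factor, read 4834, the complement gene C1qa read 5695, and the macrophage receptor gene Vsig4 read 3851 against 3.1 to 61.9 elsewhere. Over the macrophage list its mean log2 signal was 11.52, against 7.80 to 9.43 on the 12 others, and over the luminal list it was 4.95, against 9.26 to 10. On this array 188 genes lay at least 4-fold above and 222 at least 4-fold below every other tumour.

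Apart from this tumour, arrays of the same kind were no more alike than arrays of different kinds. The mean correlation of log2 signals between arrays was 0.861 within STAT5ca (15 pairs, without STAT5ca_177), 0.851 within STAT5Δ750 (15 pairs) and 0.854 between the groups (36 pairs). With STAT5ca_177 the value within STAT5ca was 0.799 (21 pairs) and the value between groups 0.829 (42 pairs). The first principal component of the 13 arrays, with 29.8% of the variance, placed STAT5ca_177 at 125.4 and the others between −26.7 and 17.1. Without it, the first component held 23.3% of the variance and ran from STAT5ca_124 at −37.9 to STAT5Δ750_160 at 48.9. Both groups had arrays on both sides of 0: STAT5ca_169 at 36.7 and STAT5ca_123 at 18.4 lay with STAT5Δ750_160, STAT5Δ750_165 and STAT5Δ750_174, while STAT5Δ750_92 at −28.5 and STAT5Δ750_254 at −22.2 lay with the other STAT5ca tumours.

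**Figure D1:**
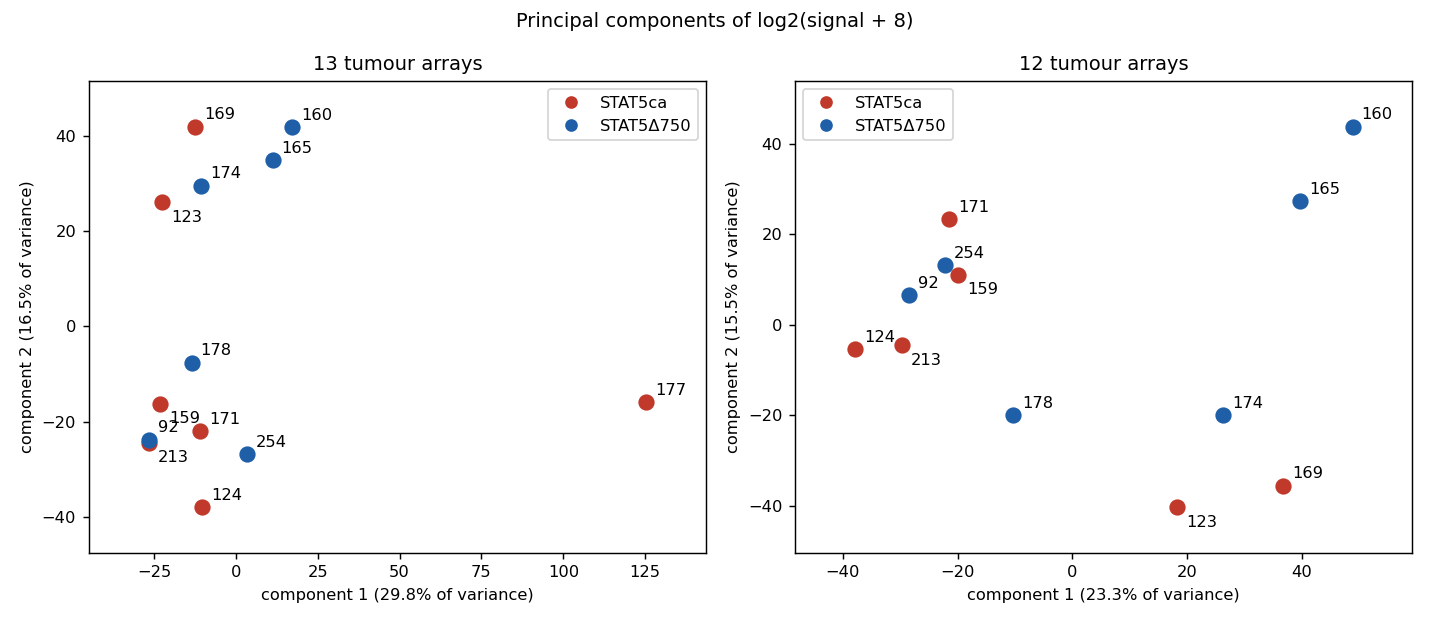
Scores of each tumour array on the first and second principal component of log2(signal + 8), with all 13 arrays (left) and with the 12 arrays without STAT5ca_177 (right). Points are arrays, coloured by group and marked with the tumour number; STAT5ca_177 lies alone at 125.4 in the left panel, and the groups are intermixed along the first component in the right panel.

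The genes with the heaviest weights on the component of the 12 arrays ranged widely over the 12 tumours. At the high end were the stem and luminal cell surface gene Prom1 (signals from 0.7 to 1251), the transcription factor gene Etv4 (0.9 to 211.7) and the growth factor receptor gene Met (11.8 to 4370). At the low end were the peptide hormone gene Cck (0.9 to 3122), the lipase gene Cel (11.2 to 5090), the haptoglobin gene Hp (86.7 to 6667) and the luminal keratin gene Krt19 (20.8 to 6031). These genes describe the axis and were chosen by it, so that no test is attached to them.

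No gene passed the threshold between the groups. At an adjusted p of 0.05, limma called 0 of 8885 genes (0%) with 13 arrays, where the smallest adjusted p was 0.995, and 0 of 8885 (0%) with 12 arrays, where it was 0.259. At an unadjusted p under 0.05 there were 396 genes (4.46%) with 13 arrays, 194 (2.18%) higher and 202 (2.27%) lower in STAT5ca. With 12 arrays there were 645 genes (7.26%), 398 (4.48%) higher and 247 (2.78%) lower, and 311 genes were in both sets. The split by direction depended on the scaling. With every array scaled to a common median, the median difference of all genes moved from 3.47e-04 to 0.15 with 13 arrays and from 0.03 to 0.15 with 12, and 483 of 563 and 643 of 750 genes with an unadjusted p under 0.05 were higher in STAT5ca (85.8% and 85.7%, against 49.0% and 61.7% as deposited). No scaling gave a called gene.

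A count of 0 does not show that the tumours were alike. The median distance from the estimate to the end of the unadjusted 95% interval was ± 0.59 with 13 arrays and ± 0.54 with 12. The interval lay wholly within a 2-fold difference either way for 5553 genes (62.5%) with 13 arrays and 5947 (66.9%) with 12, and within a 4-fold difference for 8175 (92%) and 8298 (93.4%). For the other genes the interval reached past a difference of that size on at least 1 side. With the β-actin ratio as a covariate, 255 and 329 genes had an unadjusted p under 0.05 and 0 were called.

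**Figure D2:**
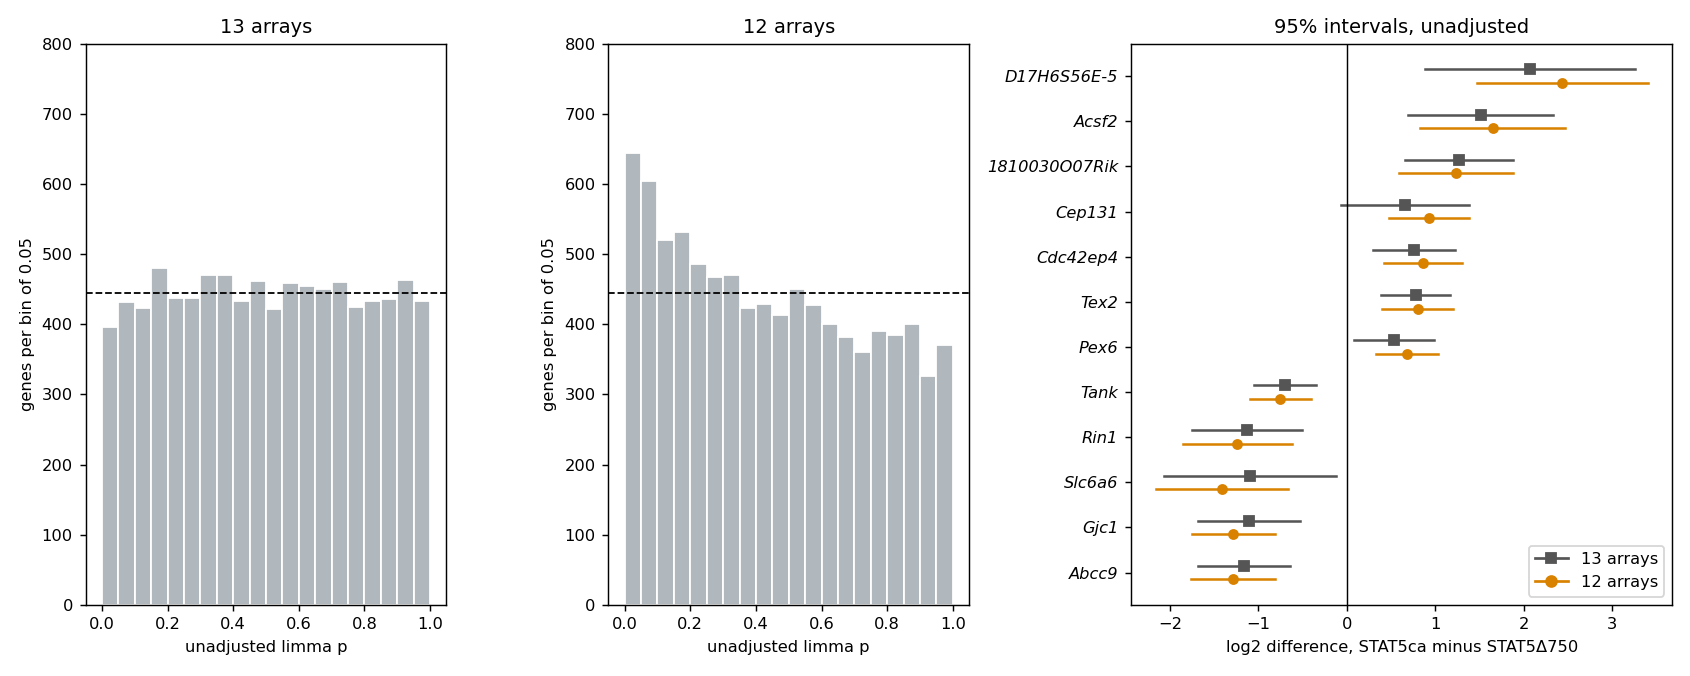
Left and centre: number of the 8885 genes in each 0.05-wide bin of unadjusted limma p with 13 and with 12 arrays, with a dashed line at an even spread; the lowest bin holds 396 genes with 13 arrays and 645 with 12. Right: log2 difference, STAT5ca minus STAT5Δ750, with unadjusted 95% intervals for 12 of the genes with the smallest p, for 13 (squares) and 12 arrays (circles); none passed an adjusted p of 0.05.

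The smallest p-values with 12 arrays belonged to 2 genes that were lower in STAT5ca, Gjc1 and Abcc9. Gjc1 encodes the gap junction protein connexin 45. Its signals in the 6 STAT5ca tumours were 10.6, 19.7 and 29.6 as lowest, median and highest, and in STAT5Δ750 tumours 41.1, 57.3 and 92.1, with 75.2 to 107.8 in gland. Abcc9 encodes a regulatory subunit of ATP-sensitive potassium channels found in smooth muscle and pericytes. Its signals were 16.3, 32.1 and 39.5 in the 6 STAT5ca tumours, 59.9, 82.0 and 112.5 in STAT5Δ750 tumours and 135.2 to 199.6 in gland. In both genes each of the 6 STAT5ca tumours lay below each STAT5Δ750 tumour. For Gjc1 all 6 STAT5ca signals were under the filter signal of 33.7, and all STAT5Δ750 signals were above it. Gjc1 thus passed the filter on low signals mostly through the STAT5Δ750 tumours, where it was higher. For Abcc9 the 6 STAT5ca signals lay on both sides of 33.7, and all STAT5Δ750 signals were above it. STAT5ca_177 read 54.5 for Gjc1 and 59.9 for Abcc9, within the STAT5Δ750 range for Gjc1 and at its lower end for Abcc9. The differences with 12 arrays were −1.28 ± 0.22 for Gjc1 and −1.29 ± 0.22 for Abcc9, each with a limma adjusted p of 0.259. With 13 arrays they were −1.11 ± 0.27 and −1.16 ± 0.24, each with an adjusted p of 0.995.

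Of the other lower genes with the smallest p, Tank, Mob4, Rin1 and Slc6a6 also had groups that did not overlap in the 12 arrays. Tank encodes an adaptor of TRAF proteins in NF-κB and interferon signalling. Tank read 259.4 to 389.2 in all 7 STAT5ca tumours and 403.9 to 610.1 in STAT5Δ750 tumours, a difference of −0.70 ± 0.16 with 13 arrays and −0.75 ± 0.16 with 12. Mob4 read 321.6 to 541 against 563.3 to 871.3, and Rin1, which encodes an effector of RAS, read 15.8 to 37.7 without STAT5ca_177 against 43.7 to 152.3. For Rin1 all STAT5Δ750 signals were above the filter signal of 33.7, and the 6 STAT5ca signals lay on both sides of it. Tpm2 and Myl9 encode contractile proteins of smooth muscle and myoepithelium. They differed by −1.30 ± 0.33 and −1.07 ± 0.29 with 12 arrays and by −1.04 ± 0.40 and −0.90 ± 0.32 with 13, and their groups overlapped. Max, the partner of MYC, differed by −1.54 ± 0.40 with 13 arrays and −1.32 ± 0.36 with 12. The taurine transporter gene Slc6a6 differed by −1.41 ± 0.35 with 12 arrays and −1.09 ± 0.45 with 13. Its signals were 1.6 to 10.3 in the 6 STAT5ca tumours and 10.4 to 75.5 in STAT5Δ750 tumours, and the low values were near the offset. Among these 12 tumours, only STAT5Δ750 tumours, where Slc6a6 was higher, had signals above the filter signal of 33.7. The remaining lower genes were Gnpnat1, Gnmt, Rapgef3 and Emcn with 13 arrays and Zfp131 and Wipf1 with 12. Their differences with 12 arrays ran from −1.76 ± 0.50 for Gnmt to −0.72 ± 0.20 for Gnpnat1. With 13 arrays they ran from −1.78 ± 0.47 for Gnmt to −0.75 ± 0.63 for Wipf1.

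Among genes higher in STAT5ca, D17H6S56E-5 had the smallest p with 12 arrays. It is a gene of the major histocompatibility complex region. It read 452.4, 1815 and 3620 in the 6 STAT5ca tumours and 183.4, 250.2 and 471.5 in STAT5Δ750 tumours, with 253.2 in STAT5ca_177 and 75 to 2130 in the 3 glands. In 5 of the 6 STAT5ca tumours it lay above every STAT5Δ750 tumour, and STAT5ca_213, at 452.4, lay just under STAT5Δ750_92, at 471.5. The difference was 2.43 ± 0.45 with 12 arrays (limma adjusted p = 0.350) and 2.07 ± 0.55 with 13 (0.995). Without STAT5ca_213 its adjusted p was 0.0462, the only call for it among the alternatives.

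Acsf2, which encodes a mitochondrial acyl-CoA synthetase, read 19.5 to 64.8 in the 7 STAT5ca tumours. It read 3.8 to 8.3 in 5 STAT5Δ750 tumours, near the offset of 8, and 48.6 in STAT5Δ750_92. Acsf2 thus passed the filter on low signals mostly through the STAT5ca tumours, where it was higher. The difference was 1.65 ± 0.38 with 12 arrays and 1.51 ± 0.38 with 13. Without STAT5Δ750_92 the 12-array comparison gave a limma adjusted p of 0.0258. Tex2 read 302.7 to 442.9 in all 7 STAT5ca tumours and 140.2 to 257.1 in STAT5Δ750 tumours, without overlap, a difference of 0.78 ± 0.18 with 13 arrays and 0.80 ± 0.18 with 12. The remaining higher genes were 1810030O07Rik, Tceanc2, Cryl1, Abhd1, BC029722, Ccdc91 and Cdc42ep4 with 13 arrays and Cep131, Cdc42ep4, Pex6, 1810030O07Rik, Qdpr, Btbd2 and Csnk1d with 12. Qdpr recycles the cofactor of aromatic amino acid hydroxylases, Pex6 serves peroxisome assembly and Cep131 is a centriolar protein. Their differences with 12 arrays ran from 0.56 ± 0.14 for Csnk1d to 1.27 ± 0.37 for Abhd1. With 13 arrays they ran from 0.39 ± 0.22 for Csnk1d to 1.27 ± 0.28 for 1810030O07Rik. Over all tested genes, the groups did not overlap in 13 genes (0.146%) with 13 arrays, 8 (0.09%) higher and 5 (0.0563%) lower in STAT5ca, and in 39 (0.439%) with 12 arrays, 25 (0.281%) higher and 14 (0.158%) lower.

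The STAT genes themselves were read as the sum of endogenous and any transgene transcript that the probes detect, and whether these probes detect the transgenes is not given in the sources used here. Stat5a read 102.6, 283.1 and 609.6 in the 7 STAT5ca tumours and 98.6, 178.6 and 587 in STAT5Δ750 tumours, and Stat5b read 211.5, 435.3 and 630.1 against 148.2, 280.1 and 425.1. Both overlapped between the groups, and in gland they read 392.3 to 682.8 and 632 to 768.8. For Stat5a the difference was 0.34 ± 0.46 with 13 arrays and 0.51 ± 0.45 with 12, with a 95% interval of −0.46 to 1.49 with 12. For Stat5b it was 0.48 ± 0.29 and 0.61 ± 0.28, and it was the only one of the 21 tested core genes with an unadjusted limma p under 0.05 (0.0473 with 12 arrays; exact permutation p = 0.0520, adjusted limma p = 0.682). Other probe sets of these genes had other signs: a further Stat5a probe set gave −0.28 with 13 arrays and −0.11 with 12, and a further Stat5b probe set −0.10 and −0.01. Stat3, which signals for involution in the gland, read 794.6, 1212 and 1413 against 1108, 1242 and 1492, and differed by −0.18 ± 0.18 and −0.10 ± 0.16. The interval for Stat3 with 12 arrays, −0.45 to 0.25, lay within a 2-fold difference on this probe set. Its other probe sets gave −0.57 and 0.04 with 13 arrays and −0.50 and 0.15 with 12. The kinase gene Jak2 differed by 0.33 ± 0.23 and 0.25 ± 0.23, and by −0.09 and −0.14 on its other probe set. Of the 6 tested STAT genes, 4 were higher in STAT5ca with 13 arrays and 3 with 12.

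**Figure D3:**
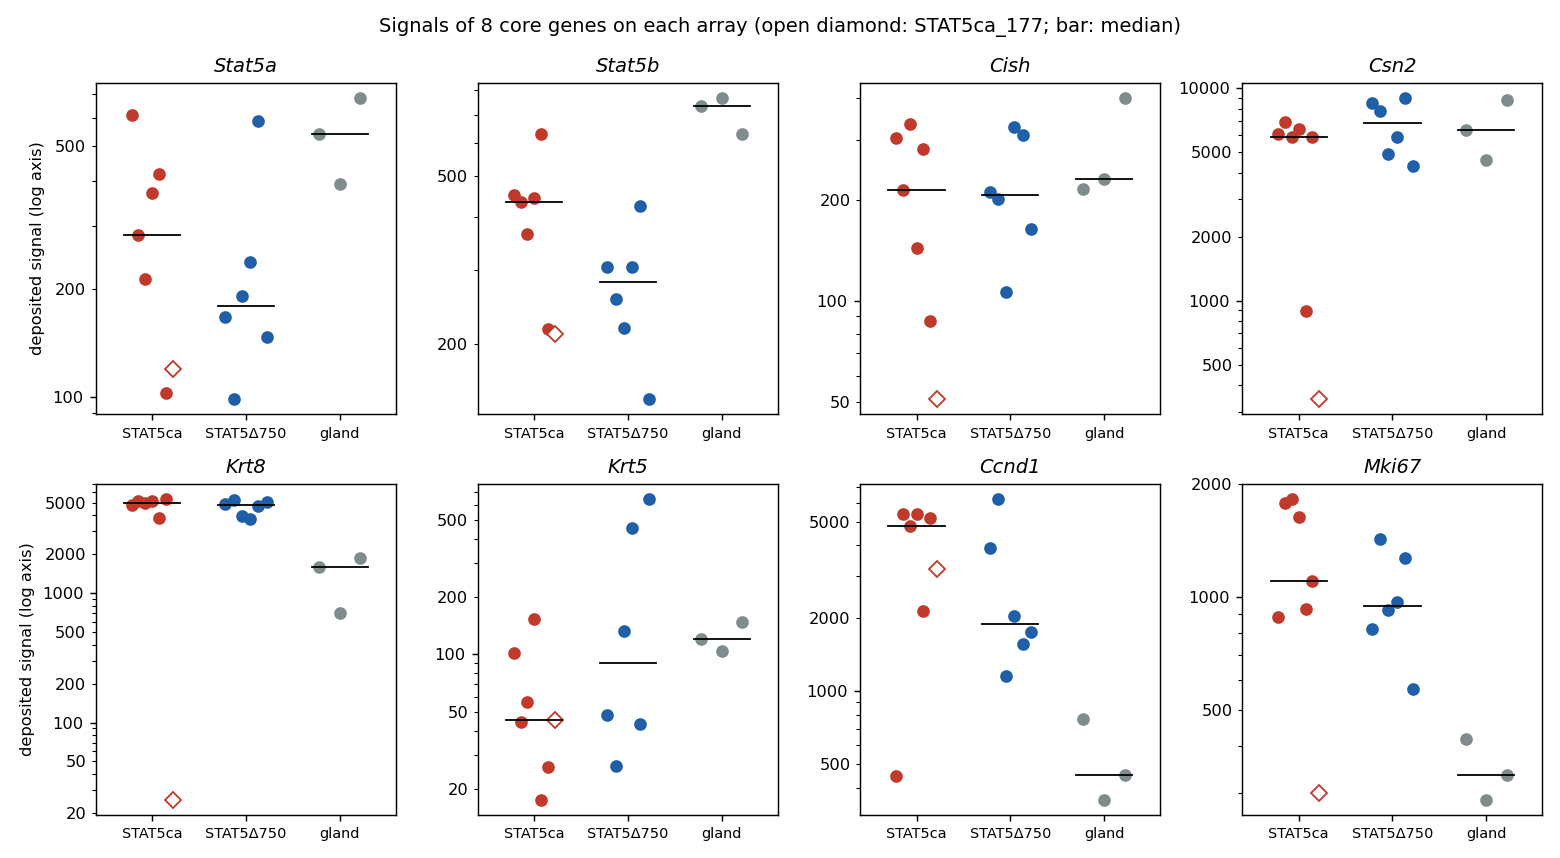
Deposited signals, on log axes, of 8 genes on each of the 16 arrays, by group; the open diamond is STAT5ca_177 and bars are group medians over all arrays shown. Krt8 lies between 3711 and 5376 on 12 tumour arrays and at 25.3 on STAT5ca_177, and the ranges of the 2 tumour groups overlap in all 8 genes.

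The targets of STAT5 showed no common direction. Cish read 51.2, 212.9 and 335.7 in the 7 STAT5ca tumours and 106.1, 205.9 and 328.5 in STAT5Δ750 tumours, with 214.6 to 401.5 in gland. The medians were close and the ranges overlapped. The difference was −0.26 ± 0.42 with 13 arrays and 0.01 ± 0.35 with 12, with a 95% interval of −0.75 to 0.77 with 12. Socs2, another feedback inhibitor that STAT5 induces, ran from 112 to 3392 in STAT5ca and from 145.1 to 2921 in STAT5Δ750 tumours, and differed by −1.10 ± 0.89 and −0.84 ± 0.91. Elf5, the alveolar transcription factor, ran from 607.2 to 4381 in the 6 STAT5ca tumours and from 518.4 to 4849 in STAT5Δ750 tumours, and differed by −0.81 ± 1.17 with 13 arrays and 0.24 ± 0.58 with 12. In the list of 19 tested STAT5 and prolactin pathway genes, 9 were higher in STAT5ca with 13 arrays and 11 with 12, with medians of −0.04 and 0.05 beside 3.47e-04 and 0.03 for all genes. Neither sign was stable: common-median scaling turned the 13-array median to 0.11, and the mean over the probe sets of each gene turned the 12-array median to −0.09. Cav1 had an unadjusted p under 0.05 in both fits (0.0429 and 0.0347) and Myc with 13 arrays only (0.0412), all lower in STAT5ca. Caveolin-1, from Cav1, restrains prolactin signalling in the gland, and its difference was −1.11 ± 0.50 and −1.23 ± 0.52.

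Genes with the STAT5 core in the promoter window had differences close to those of other genes. Of the 7185 tested genes with a window, 587 (8.17%) held a match. Their median difference was 0.02 with 13 arrays and 0.03 with 12, and that of the 6598 genes without a match was 0.01 and 0.03. An unadjusted p under 0.05 was found for 4.09% of genes with and 4.41% of genes without a match with 13 arrays, and for 7.84% and 7.15% with 12. The windows end 250 bases before the start, and sites farther away were not searched.

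Casein genes were read in most tumours of both kinds at signals near those of gland. Csn2, the β-casein gene whose window is shown above, read 344.8, 5892 and 6930 in the 7 STAT5ca tumours and 4279, 6854 and 9011 in STAT5Δ750 tumours, with 4583 to 8747 in gland. Low values were on STAT5ca_177, at 344.8, and on STAT5ca_169, at 896.4, and the other 5 STAT5ca tumours lay within the STAT5Δ750 range. Csn1s1 read 101.6, 6412 and 7450 against 2703, 6728 and 10450, and Csn3, the κ-casein gene, 43.4, 6621 and 8030 against 2999, 8164 and 10510. With 13 arrays the differences were −1.05 ± 0.67 for Csn2, −1.07 ± 0.90 for Csn1s1 and −1.13 ± 1.01 for Csn3, with exact permutation p-values of 0.213, 0.357 and 0.355. With 12 arrays they were −0.52 ± 0.46 for Csn2, −0.28 ± 0.49 for Csn1s1 and −0.14 ± 0.30 for Csn3, with exact permutation p-values of 0.396, 0.662 and 0.660. The 95% interval for Csn3 with 12 arrays, −0.79 to 0.51, lay within a 2-fold difference, and with 13 arrays it did not.

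Other milk genes varied so widely within each group that the comparison had little resolution. Wap, the whey acidic protein gene, ran from 22.4 to 3282 in STAT5ca and from 16.4 to 9116 in STAT5Δ750 tumours, a difference of −0.70 ± 1.53 with 13 arrays and −0.43 ± 1.61 with 12, where its interval ran from −3.92 to 3.07. Lalba, which encodes α-lactalbumin, ran from 11.5 to 856.6 in the 6 STAT5ca tumours and from 3.4 to 482.6 in STAT5Δ750 tumours, and differed by −0.31 ± 1.20 with 13 arrays and 0.28 ± 1.13 with 12. The gene for the mucin-like milk protein GlyCAM-1, Glycam1, ran from 1.1 to 6873 and from 662.6 to 12070, with a difference of −3.04 ± 1.64 with 13 arrays and −2.73 ± 1.73 with 12. Of 22 tested milk genes, 5 were higher in STAT5ca with 13 arrays and 10 with 12, with medians of −0.46 and −0.02, and 0 had an unadjusted p under 0.05 in either fit. The median thus rested on STAT5ca_177.

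The luminal epithelial genes Krt8, Krt18 and Cdh1 were at high and narrow levels in 12 of the 13 tumours. Other genes of the luminal list ranged widely on these 12, such as Krt19 (20.8 to 6031) and Prom1 (0.7 to 1251). Krt8 read 3836, 5044 and 5376 in the 6 STAT5ca tumours and 3711, 4768 and 5276 in STAT5Δ750 tumours, against 708.1 to 1880 in gland. Krt18 read 5184, 5497 and 6440 against 3974, 5225 and 6072. In both genes the groups overlapped over most of their range. With 13 arrays the differences were −0.93 ± 1.02 for Krt8, −0.83 ± 0.93 for Krt18 and −0.24 ± 0.29 for Cdh1. With 12 arrays they were 0.09 ± 0.15 for Krt8, 0.11 ± 0.14 for Krt18 and −0.01 ± 0.20 for Cdh1, with 95% intervals of −0.22 to 0.41, −0.19 to 0.42 and −0.43 to 0.42, each within a 2-fold difference. With 13 arrays all 22 tested luminal genes were lower in STAT5ca, with a median of −0.64. With 12 arrays 14 of 22 were higher, with a median of 0.11, so that STAT5ca_177 set the direction. With 12 arrays 2 of the 22 had an unadjusted p under 0.05 and were higher (4.48% of all genes), and 1 was lower (2.78%). The higher genes were Ehf and Rab25, epithelial genes for a transcription factor and a vesicle GTPase, at 0.78 ± 0.20 and 0.64 ± 0.20 with 12 arrays but −0.17 ± 0.96 and −0.20 ± 0.84 with 13. The tight junction gene Cldn4 differed by −1.07 ± 0.46 and −1.62 ± 0.69. Of 10 luminal progenitor genes 7 were higher in STAT5ca with 12 arrays and 4 with 13, with medians of 0.26 and −0.37, so that the sign turned with STAT5ca_177, and with 12 arrays and the Gapdh ratio as a covariate the median was −0.0013. Sox9, a transcription factor of progenitors, ran from 247.5 to 1052 in the 6 STAT5ca tumours and from 98.9 to 615.7 in STAT5Δ750 tumours, a difference of 1.20 ± 0.50 with 12 arrays (limma adjusted p = 0.642) and 0.37 ± 0.94 with 13. Of the hormone-sensing markers, Esr1 reached at most 18.7 and Pgr at most 15.6 on any tumour array, below the filter. In gland they read equally low, at 4.1 to 12.8 and 4.3 to 7.9. The 4 tested genes of that list were all lower in STAT5ca, with medians of −0.92 with 13 arrays and −0.79 with 12, and 0 had an unadjusted p under 0.05.

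Most basal genes had point estimates below 0, that is, lower in STAT5ca. Krt5 encodes a basal keratin. It read 17.5, 45.5 and 152.6 in the 7 STAT5ca tumours and 26.3, 90.6 and 648.2 in STAT5Δ750 tumours, with 104.2 to 148.2 in gland, and differed by −1.09 ± 0.70 and −1.06 ± 0.75 with 13 and 12 arrays. The higher STAT5Δ750 values came from part of the group only, and the ranges overlapped. Trp63, the p63 gene of basal cells, ran from 6.2 to 33.5 in STAT5ca and from 12.3 to 241.4 in STAT5Δ750 tumours. The difference was −1.42 ± 0.64 with 12 arrays and −1.43 ± 0.60 with 13. All 7 STAT5ca signals were under the filter signal of 33.7. Trp63 thus passed the filter on low signals only through the STAT5Δ750 tumours, where it was higher. The laminin subunit gene Lamb3 ran from 31.2 to 229.1 in the 6 STAT5ca tumours and from 155.9 to 924.8 in STAT5Δ750 tumours, a difference of −1.37 ± 0.52 with 12 arrays and −1.64 ± 0.56 with 13. With 12 arrays 13 of the 14 tested basal genes were lower in STAT5ca, with a median of −0.65, and 3 of them, Lamb3, Actg2 and Trp63, were lower at an unadjusted p under 0.05, beside 2.78% of all genes. With 13 arrays all 14 were lower, with a median of −0.62, and the 3 were Lamb3, Trp63 and Cdh3, beside 2.27% of all genes. The median was below 0 in all 26 settings of the 12-array and all 27 of the 13-array comparison. By tumour, the mean log2 signal of the list was 8.12 on STAT5Δ750_165, 8.05 on STAT5Δ750_174 and 9.08 on STAT5Δ750_160, and 6.61 to 6.90 on the other 3, while the 7 STAT5ca tumours lay between 5.89 and 7.34. The 3 high tumours were also among those on the positive side of the first component. Of 21 squamous genes 7 were higher in STAT5ca with 12 arrays and 5 with 13, with medians of −0.28 and −0.68. With array quality weights these medians were 0.05 and −0.05. Fabp5 and Tgm1, genes of the cornifying epidermis, had an unadjusted p under 0.05 in both fits and differed by −0.63 ± 0.23 and −0.70 ± 0.29 with 12 arrays and by −0.77 ± 0.26 and −0.77 ± 0.29 with 13. The galectin gene Lgals7 differed by −1.11 ± 0.86 and −1.42 ± 0.86. Krt14, which ran from 1.3 on STAT5ca_169 to 2222 on a STAT5Δ750 tumour, differed by −0.26 ± 1.20 and −0.63 ± 1.18.

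Genes of stroma and of mesenchymal transition were lower in the 6 STAT5ca tumours by most point estimates. In whole tumours, fewer cells of a type and less RNA per cell cannot be told apart. With 12 arrays 0 of 14 mesenchymal genes and 0 of 21 fibroblast and collagen genes were higher in STAT5ca, with medians of −0.57 and −0.49, beside 53.3% of all tested genes. With 13 arrays it was 3 of 14 and 2 of 21, with medians of −0.29 and −0.31. With the β-actin ratio as a covariate these 13-array medians were −0.07 and −0.03, and the 12-array fibroblast median was −0.25. The 12-array mesenchymal median ran from −0.69 to −0.42 over all settings. Vim, the vimentin gene, read 1015, 1640 and 2796 in the 6 STAT5ca tumours, 7363 in STAT5ca_177 and 1161, 3163 and 3786 in STAT5Δ750 tumours, a difference of −0.59 ± 0.34 with 12 arrays and −0.29 ± 0.44 with 13. Twist1, a transcription factor gene of mesenchymal cells, ran from 3.9 to 48 and from 8.8 to 111.6. Its difference was −1.41 ± 0.54 with 12 arrays and −1.51 ± 0.51 with 13. Twist1 passed the filter on low signals mostly through the STAT5Δ750 tumours, where it was higher. The matrix protein gene Fbln2 ran from 72.5 to 309.5 in the 6 STAT5ca tumours and from 191.9 to 884.3 in STAT5Δ750 tumours, a difference of −1.30 ± 0.49 and −0.99 ± 0.55. With 12 arrays both had a limma adjusted p of 0.642. Of 18 matrix protease genes and inhibitors, 2 were higher in STAT5ca with 12 arrays and 6 with 13, with medians of −0.56 and −0.34. Plaur, the urokinase receptor gene, read 55.2 to 110.1 in the 6 STAT5ca tumours, 1171 in STAT5ca_177 and 86.7 to 610.9 in STAT5Δ750 tumours.

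The endothelial genes gave the largest share of small p-values among the lists. Of 16 tested genes, 6 had an unadjusted p under 0.05 with 12 arrays (Emcn, Egfl7, Cdh5, Plvap, Pecam1 and Cldn5) and 5 with 13, all lower in STAT5ca, beside 2.78% and 2.27% of all genes in that direction, and 0 passed adjustment. Emcn, the endomucin gene, read 55.4, 80.2 and 142 in the 6 STAT5ca tumours and 119.3, 174.9 and 243.8 in STAT5Δ750 tumours, a difference of −0.95 ± 0.26 with 12 arrays and −0.93 ± 0.25 with 13. Cdh5, the VE-cadherin gene, read 43.8, 72.2 and 87.5 against 78.5, 105.9 and 210.2, a difference of −0.65 ± 0.23 and −0.57 ± 0.23. Below all STAT5Δ750 tumours lay 4 of the 6 STAT5ca tumours for Emcn and 5 of the 6 for Cdh5. The list median was −0.46 with 12 arrays and −0.30 with 13 and stayed below 0 in every setting run. Per tumour, the mean log2 signal of the list ran from 5.76 to 6.58 in STAT5ca and from 6.29 to 7.05 in STAT5Δ750 tumours. The gland arrays lay at 7.70 to 8.06. Dll4, a Notch ligand of sprouting vessels, differed by −0.63 ± 0.25 with 12 arrays (limma adjusted p = 0.642) and −0.57 ± 0.24 with 13.

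**Figure D4:**
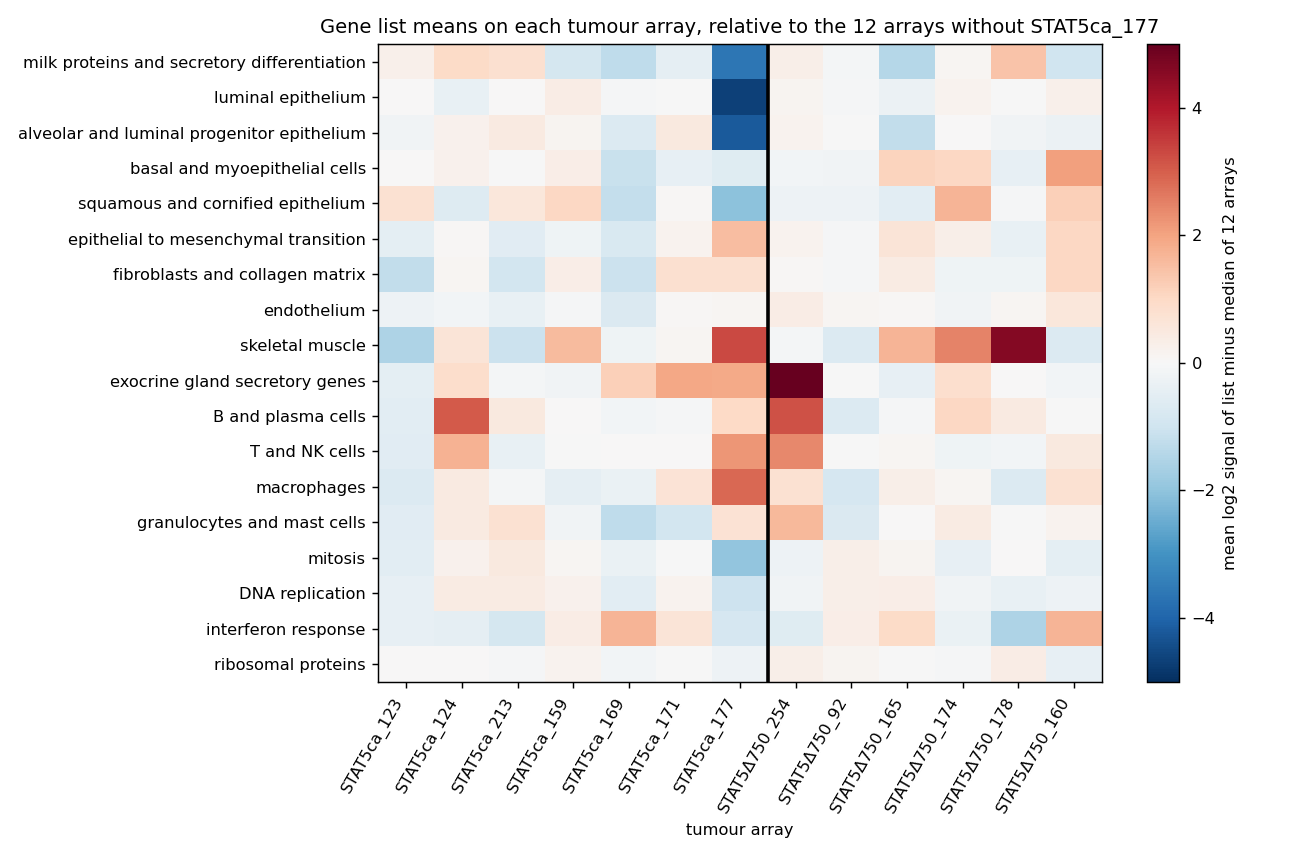
Mean log2(signal + 8) of 18 gene lists (rows) on each tumour array (columns), shown as the difference from the median of the 12 arrays without STAT5ca_177; red is above and blue below that median, and the black line divides STAT5ca from STAT5Δ750 tumours. STAT5ca_177 is lowest for the luminal list and highest for the macrophage list, and single tumours hold the highest muscle and exocrine values.

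Genes of other tissues were high on few tumours, and those of muscle and B cells were higher still in gland. The skeletal muscle list had the lowest median of all lists with 12 arrays, −1.34, with 1 of 20 genes higher in STAT5ca and 0 at an unadjusted p under 0.05, and the median lay between −1.73 and −0.56 in the 26 settings. With 13 arrays the median was −0.82, with 1 of 20 genes higher and 0 at an unadjusted p under 0.05, and with the β-actin ratio as a covariate it was 0.0083. Its mean log2 signal was 10.37 on STAT5Δ750_178 and 8.25 on STAT5Δ750_174, against 5.09 to 7.46 on the other STAT5Δ750 tumours, 4.23 to 7.37 on the 6 STAT5ca tumours and 9.08 on STAT5ca_177. The genes of salivary and other exocrine glands had a mean of 11 on STAT5Δ750_254 and 5.01 to 7.44 on all other tumours, and without that tumour their median difference turned from −0.26 to 1.15 with 13 arrays and from −0.65 to 0.71 with 12. The B and plasma cell list was highest on STAT5Δ750_254 (9.14) and STAT5ca_124 (9.02), against 5.26 to 6.99 on the others. In gland the means were 12.27 to 12.56 for muscle, 9.65 to 10.35 for B and plasma cells and 5.05 to 5.46 for exocrine genes. What these lists contribute to the basal, stromal and endothelial values was not tested.

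Macrophage genes changed sides with STAT5ca_177. With 13 arrays 22 of 25 were higher in STAT5ca, with a median of 0.25, and with 12 arrays 7 of 25 were, with a median of −0.12, and 0 had an unadjusted p under 0.05 in either fit. Mrc1, the mannose receptor gene, read 36.9 to 347.6 in the 6 STAT5ca tumours, 3732 in STAT5ca_177 and 114.6 to 550.2 in STAT5Δ750 tumours. Of 25 chemokine and receptor genes, 11 were higher with 13 arrays and 6 with 12, with medians of −0.11 and −0.39. Ccr1 and Cxcl14 had an unadjusted p under 0.05 with 12 arrays and differed by −1.04 ± 0.40 and −1.08 ± 0.42, and with 13 arrays by −0.42 ± 0.72 and −0.58 ± 0.63. Of 22 interferon response genes 14 were higher in STAT5ca with 12 arrays and 10 with 13, with medians of 0.18 and −0.06, of which common-median scaling turned the second to 0.09. Their mean log2 signal ran from 7.47 to 10.03 in STAT5ca and from 6.80 to 10.05 in STAT5Δ750 tumours, highest on STAT5ca_169 and STAT5Δ750_160. Ifih1, a sensor of viral RNA, differed by 1.08 ± 0.48 with 12 arrays and 0.87 ± 0.49 with 13, and the chemokine gene Cxcl10 by −1.44 ± 0.88 and −1.38 ± 0.82.

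Mitosis genes were read above gland in 12 tumours, with list means of 8.38 to 9.40 in the 6 STAT5ca and 8.42 to 9.20 in STAT5Δ750 tumours, against 6.27 to 6.89 in gland and 6.95 in STAT5ca_177. Mki67, a marker of cycling cells, read 885.3, 1369 and 1829 in the 6 STAT5ca tumours and 567.4, 945.6 and 1424 in STAT5Δ750 tumours, with 300.8 in STAT5ca_177 and 288.2 to 419.6 in gland. Most of the range was shared. The difference was 0.45 ± 0.27 with 12 arrays (exact permutation p = 0.134) and 0.15 ± 0.38 with 13. Of 26 mitosis genes 17 were higher in STAT5ca with 12 arrays and 5 with 13, with medians of 0.12 and −0.13, and of 26 replication genes 18 and 11, with medians of 0.13 and −0.04. Common-median scaling turned the 13-array medians to 0.02 and 0.12. Ccnd1, the cyclin D1 gene and a target of prolactin signalling, read 446.5, 4787 and 5396 in the 7 STAT5ca tumours and 1158, 1897 and 6241 in STAT5Δ750 tumours. The lowest STAT5ca tumour was STAT5ca_123, at 446.5, and 4 of the STAT5Δ750 tumours lay at 2042 or below. The difference was 0.37 ± 0.58 with 13 arrays and 0.36 ± 0.62 with 12, where the interval ran from −0.99 to 1.70. Ccnd2 had an unadjusted p under 0.05 with 12 arrays only, and the tumour suppressor gene Cdkn2a had one in both fits. At low signals, they differed by −1.17 ± 0.38 and −1.26 ± 0.50 with 12 arrays and by −0.79 ± 0.51 and −1.18 ± 0.48 with 13.

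Metabolic and stress lists had medians between −0.18 and 0.23 with 12 arrays. Of 23 oxidative phosphorylation genes 16 were higher in STAT5ca with 12 arrays and 12 with 13, with medians of 0.07 and 0.02. Of 20 glycolysis genes 5 were higher in either comparison, with medians of −0.18 and −0.16, of which common-median scaling turned the second to 0.0015. The glucose transporter gene Slc2a1 differed by −0.60 ± 0.27 with 12 arrays and −0.46 ± 0.29 with 13. Of 18 fatty acid and triglyceride synthesis genes 13 were higher with 12 arrays and 9 with 13, with medians of 0.23 and 0.09. Of 17 cholesterol genes 10 and 8 were, with medians of 0.04 and −0.06, of which common-median scaling turned the second to 0.10. The unfolded protein response list had 3 and 5 of its 20 genes higher, with medians of −0.15 and −0.14, of which the same scaling turned the second to 0.02. Atf4, a transcription factor of that response, differed by −0.54 ± 0.17 with 12 arrays (limma adjusted p = 0.642) and −0.42 ± 0.21 with 13. The ribosomal protein list, 15 genes, had medians of −0.04 with 12 arrays and −0.07 with 13, and common-median scaling turned both to 0.09. Of 15 tested apoptosis genes 8 were higher in STAT5ca with 12 arrays and 9 with 13, with medians of 0.10 and 0.06. The survival gene Mcl1 was higher in STAT5ca, by 0.50 ± 0.20 with 13 and 0.41 ± 0.18 with 12 arrays, at an unadjusted p under 0.05 in both. Of all genes, 2.18% with 13 and 4.48% with 12 arrays were higher at that p. The death receptor gene Fas differed by −1.15 ± 0.33 with 12 arrays, at an unadjusted p under 0.05, and by −0.72 ± 0.53 with 13.

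Igf2, an embryonic growth factor gene with the second largest point estimate in both fits, read 11.6, 23.6 and 584.5 in the 7 STAT5ca tumours and 73.8, 529.5 and 6414 in STAT5Δ750 tumours, with 58.8 to 84.1 in gland. The highest values were on STAT5Δ750_92, at 6414, and STAT5Δ750_254, at 3995, and in STAT5ca only STAT5ca_124 was above the gland. All STAT5Δ750 signals of Igf2 were above the filter signal of 33.7, while the STAT5ca median was under it. The difference was −3.50 ± 1.09 with 13 arrays and −3.37 ± 1.16 with 12, with limma adjusted p-values of 0.995 and 0.642. Over the insulin-like growth factor list 0 of 12 genes were higher in STAT5ca with 13 arrays and 2 with 12, with medians of −0.45 and −0.35. Its mean log2 signal ran from 7.92 to 8.48 in the 6 STAT5ca tumours and from 8.40 to 9.07 in STAT5Δ750 tumours. Of 8 tested epidermal growth factor family genes 4 were higher in STAT5ca with 12 arrays and 2 with 13, with medians of −0.007 and −0.19. Btc and Erbb3 were higher at an unadjusted p under 0.05 with 12 arrays, beside 4.48% of all genes. They differed by 0.95 ± 0.33 and 0.39 ± 0.18 with 12 arrays and by 0.64 ± 0.44 and −0.16 ± 0.57 with 13. Of 15 tested Wnt genes 6 were higher in STAT5ca with 12 arrays and 7 with 13, with medians of −0.22 and −0.24. The ligand gene Wnt7b and the antagonist gene Wif1 were lower at an unadjusted p under 0.05 in both fits. Of all genes, 2.78% with 12 arrays and 2.27% with 13 were lower at that p. Wnt7b and Wif1 differed by −1.37 ± 0.54 and −2.15 ± 0.88 with 12 arrays and by −1.45 ± 0.51 and −2.11 ± 0.82 with 13. In STAT5ca Wnt7b ran from 32.9 to 114.4 and in STAT5Δ750 tumours from 67.8 to 617.6.

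The largest difference in either fit was that of Met, which encodes the receptor for hepatocyte growth factor. Met and the genes of the next 2 paragraphs were picked after their values were seen, so their values are a description. In STAT5ca tumours Met read 1.2, 44.9 and 196.6. In STAT5Δ750 tumours it read 58.6 on STAT5Δ750_92, 92.4 on STAT5Δ750_254, 490.1 on STAT5Δ750_178, 1733 on STAT5Δ750_174, 3310 on STAT5Δ750_160 and 4370 on STAT5Δ750_165, and in gland 16.9 to 110.7. Thus 4 STAT5Δ750 tumours lay above every STAT5ca tumour and every gland, and 2 lay within the range of both. The limma difference was −3.85 ± 1.05 with 13 arrays and −3.47 ± 1.05 with 12, with adjusted p-values of 0.995 and 0.642. Genes next to Met in the annotation of GRCm38.p6 were read on the same arrays. Cav2 ran from 141.5 to 2413 in STAT5ca and from 1155 to 4894 in STAT5Δ750 tumours, highest on STAT5Δ750_160 and STAT5Δ750_165, a difference of −1.96 ± 0.62 with 12 arrays and −1.72 ± 0.63 with 13. Cav1 reached 2612 on STAT5Δ750_160 and 1025 on STAT5Δ750_165, and Capza2 5283 and 6780 on the same tumours and 4699 on STAT5ca_177, against 216.3 to 493.5 and 1708 to 3304 on the other STAT5Δ750 tumours. In gland Cav1 read 2237 to 2809, so its values on these tumours were within or below the gland range. Cav2 read 820.3 to 1273 and Capza2 2430 to 2740 in gland, and St7 59.5 to 76.4 and Tes 297.6 to 402.2. St7 read 2399 on STAT5Δ750_160 and 58.9 to 198.9 on the 12 others, and Tes 3532 on STAT5Δ750_165 and 193 to 1421 on the 12 others. The neighbour Mdfic did not have its highest signal on a tumour with high Met. Mdfic read 248.7 on STAT5Δ750_165 and 362.8 on STAT5Δ750_160 and was highest on STAT5ca_177, at 2047. Lsm8 was highest on STAT5Δ750_174, at 845.2, where Met read 1733. It read 732.4 on STAT5Δ750_165 and had its lowest STAT5Δ750 value, 269.1, on STAT5Δ750_160.

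H2-Eb1 relative to H2-Aa within each array had no overlap between the groups on the 13 tumours, while related measures overlapped. The pair was picked after its values were seen, and the share of other gene pairs without overlap was not counted. H2-Eb1 and H2-Aa encode the β chain of the class II molecule I-E and the α chain of I-A, which present peptides to T cells. H2-Eb1 read 31.5, 702.5 and 5016 in the 7 STAT5ca tumours and 21.7, 66.4 and 101.5 in STAT5Δ750 tumours, and H2-Aa read 110.9, 666.4 and 7869 against 453.5, 1314 and 2703. Taken alone each gene overlapped between the groups. Their limma differences with 12 arrays were 2.29 ± 0.75 for H2-Eb1 and −1.05 ± 0.75 for H2-Aa, and with 13 arrays 2.86 ± 0.89 and −0.50 ± 0.88. The log2 value of H2-Eb1 minus that of H2-Aa on the same array ran from −1.59 to 0.50 in STAT5ca, STAT5ca_177 included, and from −4.86 to −2.92 in STAT5Δ750 tumours. It was −0.99 and −1.35 on 2 of the glands and −4.20 on the gland with the number 4, so that the 3 gland arrays, which carry no tumour, fell on both sides. D17H6S56E-5, of the same genomic region, read 1230 and 2130 on those 2 glands and 75 on the other one. H2-Ea, for the α chain of I-E, ran from 3.2 to 4935 in STAT5ca and from 20.2 to 116.4 in STAT5Δ750 tumours. Its log2 value minus that of H2-Aa ran from −5.49 to −0.67 in STAT5ca and from −6.10 to −3.48 in STAT5Δ750 tumours, with overlap. H2-Eb1 minus H2-Ab1, the β chain gene of I-A, ran from −1.72 to 0.83 and from −3.78 to −1.46, also with overlap. Of 8 tested class II presentation genes 3 were higher in STAT5ca with 12 arrays and 7 with 13, with medians of −0.14 and 0.25, so that the sign turned with STAT5ca_177. The labels give the same strain background for every array, and its part in this difference was not tested.

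**Figure D5:**
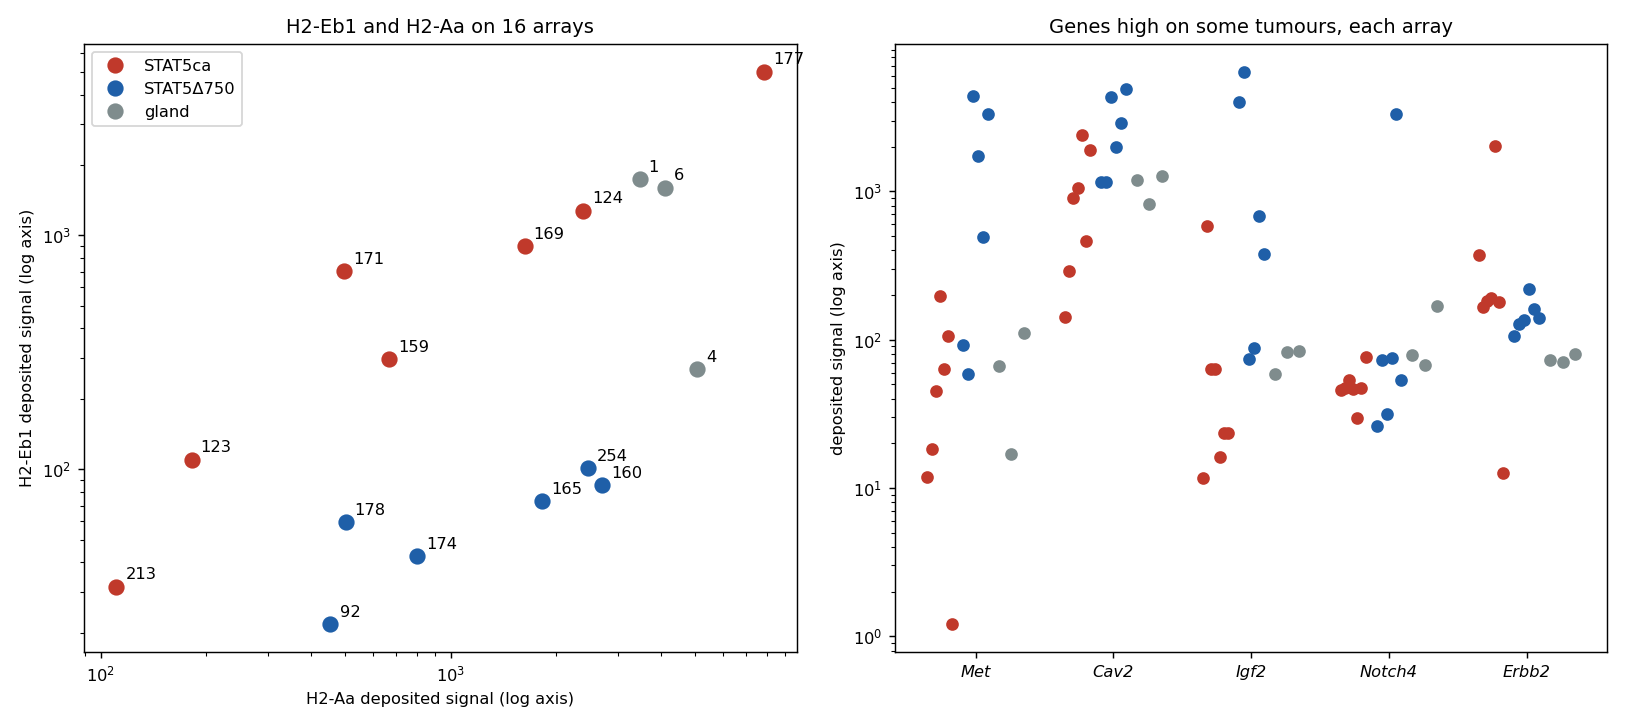
Left: deposited signal of H2-Eb1 against H2-Aa on each of the 16 arrays, both axes logarithmic, marked with the array number; the 6 STAT5Δ750 tumours and gland 4 lie below the 7 STAT5ca tumours and glands 1 and 6 at a given H2-Aa signal. Right: deposited signals, on a log axis, of Met, Cav2, Igf2, Notch4 and Erbb2 on each array in the same colours; Met is highest on 3 STAT5Δ750 tumours, at 1733 to 4370, with Notch4 at 3317 on STAT5Δ750_178 and Erbb2 at 2018 on STAT5ca_169.

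Single tumours held high values of known mammary oncogenes, in either group. Erbb2, the HER2 receptor gene, read 2018 on STAT5ca_169 and 12.7 to 371.3 on the other 12 tumours, with 70.3 to 80.2 in gland. Its neighbour Grb7 read 1049 on STAT5ca_169, 519.8 on STAT5ca_123 and 1.1 to 299.1 on the rest. Another neighbour, Stard3, read 273.1 on STAT5ca_169, within the 202.3 to 311.7 of the other tumours, and was highest on STAT5ca_123, at 569.7. Notch4 read 3317 on STAT5Δ750_178 and 26.2 to 76.3 on the other 12 tumours. The transcription factor gene Etv5 read 734.4 on STAT5ca_169, 268.2 on STAT5ca_177 and 273.7 to 332.7 on STAT5Δ750_160, STAT5Δ750_165 and STAT5Δ750_174, and 9 to 47.7 on the other 8.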

How the data were processed

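Expression in 13 mammary tumours and 3 glands was read on Affymetrix Mouse Genome 430A 2.0 arrays. The deposited values are MAS5 signals, a linear intensity per probe set, per the submitters' processing notes; the software version is not given in the sources used here. Of 22690 probe sets, 20393 had 1 gene symbol in the platform annotation, 691 had several and 1606 had none. Signals were turned into log2(signal + 8). Probe sets above the 40th percentile of tumour signals (33.7) on at least 3 tumour arrays were kept, with 1 per gene, the brightest, which left 8885 genes. limma 3.58.1 in R 4.3.3 compared the groups with 13 and with 12 arrays, with Benjamini-Hochberg adjustment over all genes at 0.05. The code was tested on simulated data. Core genes also had a two-sided exact permutation test. The number of arrays limits the precision. Named were the 10 genes per direction with the smallest p in each fit, up to 4 genes per list with the smallest p with 12 arrays, and 24 core genes; others are said to be chosen after their values were seen, as were the list genes given beyond 4 and those that describe STAT5ca_177 or a principal component. The members, the 38 gene lists and the rules were chosen with earlier results of these data known. Promoter windows are from RefSeq on GRCm38.p6. Alternatives changed the scaling, offset, filter, probe set rule, covariates and weights, and left out arrays.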

Additional observations from a re-analysis of the deposited data

Results flagged for a closer look

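Within each tumour group, the highest or lowest array stood far from the rest for the genes and lists below, by a test of the gap against the range that chance alone passes in about 1 in 20 groups. Values are log2(signal + 8), and for lists the mean over the list. Genes not named in the report were picked after their values were seen. The stated rate does not hold for genes picked because a single tumour stood apart, such as Fetub, Timp4, St7, Notch4, Dnase1, Smr3a and Tchh. For these, and for epithelial genes that go with Krt8 on STAT5ca_177, the gap is a description. Many genes and lists were screened, so that some would pass by chance.

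Most such values belonged to STAT5ca_177. This tumour was set aside for its Krt8 signal, so that its Krt8 value (5.06) only restates that choice. It was also the lowest STAT5ca tumour for the epithelial genes Krt18 (5.86), Ehf (4.22), Rab25 (4.07), Cldn4 (4.49), Esrp1 (4.63), Muc15 (4.63), Sox9 (3.28), Gabrp (4.04), Kit (6.34), Elf5 (3.98) and Csn3 (5.68). It was also the lowest for Btc (4.15), Erbb3 (6.71), Grb7 (3.19), Ugt8a (3.75), Mki67 (8.27), Max (4.50), Pex6 (7.41) and Csnk1d (8.94). The lists with the lowest mean on it were STAT5 and prolactin (7.96), luminal (4.95), luminal progenitor (6.08), mitosis (6.95) and insulin-like growth factor (6.77). It was the highest for Slc6a6 (5.93), Tpm2 (9.42), Wipf1 (10.56), Plaur (10.20), Ccr1 (10.50), Cxcl14 (10.46), Fas (7.55) and Capza2 (12.20), and for the mesenchymal (9.20), macrophage (11.52) and chemokine (8.72) lists.

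Other STAT5ca tumours stood apart for single genes. STAT5ca_169 was highest for Fetub (11.59), which encodes the liver protein fetuin B, and lowest for Tceanc2 (5.26). STAT5ca_124 was highest for the protease inhibitor gene Timp4 (11.03), for Igf2 (9.21) and for the B cell list (9.02). STAT5ca_123 was highest for Wif1 (5.47) and lowest for Ccnd1 (8.83). STAT5ca_171 was highest for Twist1 (5.81), and STAT5ca_159 was lowest for Plvap (6.77).

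Among STAT5Δ750 tumours, STAT5Δ750_254 was highest for the salivary genes Amy1 (13.23), Dnase1 (13.09) and Smr3a (13), for Fas (6.85), and for the exocrine (11) and T and NK cell (7.24) lists. STAT5Δ750_178 was highest for Notch4 (11.70), STAT5Δ750_160 for St7 (11.23) and STAT5Δ750_174 for the hair follicle gene Tchh (10.78) and the epidermal growth factor receptor family list (8.09). STAT5Δ750_92 was highest for Acsf2 (5.82) and for the cholesterol list (8.61), and STAT5Δ750_165 was lowest for the luminal progenitor list (9.05).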

How the results depend on the processing

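The count of 0 called genes held in all 28 alternatives with 13 arrays. Of the 27 with 12 arrays it held in 25, and leaving out STAT5ca_213 or STAT5Δ750_92 gave 1 call each, so that the count ran from 0 to 1. The calls were D17H6S56E-5 (limma adjusted p = 0.0462) and Acsf2 (0.0258), the latter with STAT5Δ750 signals near the offset. Genes with an unadjusted p under 0.05 numbered 270 to 645 with 13 arrays and 480 to 771 with 12 when 1 array was left out. Without the filter there were 551 of 12394 genes and 818, and without STAT5ca_124 and STAT5Δ750_254 there were 289 and 470. With the Gapdh ratio as a covariate there were 321 and 465, and with array weights 600 and 662. With common-median scaling the 12-array medians of the milk (0.11), macrophage (0.01) and ribosomal (0.09) lists turned positive, while those of the basal (−0.57), fibroblast (−0.37), mesenchymal (−0.46), endothelial (−0.35) and muscle (−1.28) lists stayed negative. The cause was not tested. The STAT5 and prolactin list moved to −0.24 with 13 arrays and −0.09 with 12 when probe sets were averaged, and to −0.04 with 12 and the β-actin ratio as a covariate, where the cholesterol list moved to −0.29. Stricter filters gave no value for the red blood cell list. No paired analysis was possible because the groups share no replicate numbers. Signals at or under the offset made up 20.6% of values, so that low genes are poorly resolved.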

Other observations

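Cck, the cholecystokinin gene, had a difference of 2.42 with 12 arrays and ran from 0.9 to 3122 over the tumours. The imprinted gene Mest read 1013 on STAT5Δ750_160, and the transcription cofactor gene Cited1 read 352.7 on STAT5Δ750_92. Tek, the angiopoietin receptor gene, read 844.1 on STAT5ca_159 and 17.3 to 108.3 on the other 12 tumours, and Fgf15 read 457.7 on the same tumour and 0.6 to 53.5 on the others. These genes were chosen after their values were seen.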
